A study of Mus musculus with 16 samples.

Results

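A set of 7 genes whose transcripts fell together with the Lgr5+ cells of the neonatal mouse cochlea was followed through whole tissue and ribosome immunoprecipitates. They are Trh, Prdm12, Slitrk6, Gpr50, Rorb, Slc25a41 and Ppp2r2b, 7 of the 47729 genes with values, and they were chosen by a strong drop in CPM from the control to the DTR immunoprecipitates. All 7 passed the filter on low values, which kept 16994 genes. The control mice were GLAST CreERT/+; Rpl22 HA/+, and the DTR mice carried in addition Lgr5 DTR-EGFP/+, a knock-in that places the human diphtheria toxin (DT) receptor and EGFP under the endogenous Lgr5 locus, so that 1 Lgr5 allele is altered in every DTR animal. Both genotypes therefore share the GLAST (Slc1a3) CreERT driver and the HA-tagged ribosomal protein, which marks the greater epithelial ridge (GER) and the inner phalangeal cells among the supporting cells. Per the study's methods DT and tamoxifen were given to both genotypes at P1, but the labels list the controls as untreated. Cochleae were collected at P4 without spiral ganglion, lateral wall and Reissner's membrane. Each of the 4 replicates of a genotype was a pool of 8 cochleae from 4 mice. Of its homogenate, 5% was sequenced directly (input) and 95% went through the anti-HA immunoprecipitation (IP), giving 4 input and 4 IP libraries per genotype with 28089836 to 41966310 reads counted on genes. Levels are CPM as deposited, the reads on a gene per 1000000 counted in its library, and log2 fold changes (LFC) come from quantile-normalized CPM with 0.5 added.

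Lgr5 encodes a receptor for R-spondins, ligands that strengthen Wnt signaling, and marks supporting cells of the neonatal organ of Corti that can act as progenitors. When such cells carry the human DT receptor, the toxin enters them, blocks protein synthesis and kills them. The 7 genes belong to unrelated families. Trh encodes the precursor of thyrotropin-releasing hormone, a tripeptide best known from the hypothalamus. Gpr50 encodes an orphan G protein-coupled receptor related to the melatonin receptors. Slitrk6 encodes a leucine-rich repeat transmembrane protein that promotes neurite outgrowth and is needed for normal innervation of the inner ear. Prdm12, a PR domain zinc finger protein known for its part in the development of pain-sensing neurons, and Rorb, an orphan nuclear receptor of retina and cortex, act in the nucleus. Slc25a41 is a mitochondrial carrier of ATP-Mg and phosphate, and Ppp2r2b is a brain-enriched B regulatory subunit of protein phosphatase 2A (PP2A).

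Lgr5 itself served as the check of the labels. Its level in control input was 63.6, 59.0, 66.1 and 64.4 CPM in pools 1 to 4, and in DTR input 17.9, 11.2, 15.1 and 19.6 CPM. In the IP libraries it was 39.3, 40.0, 35.5 and 31.4 CPM in controls and 8.13, 9.47, 8.61 and 11.3 CPM in DTR. The groups did not overlap in either fraction, and the reads summed over 4 libraries left 25.1% of the control level in input and 25.5% in IP. In input the LFC was -2.0 (SE 0.15, adjusted p = 2.2e-08, limma with Benjamini-Hochberg adjustment over all tested genes). Since the tissue was sequenced in bulk, fewer Lgr5+ cells, less RNA per cell and the altered allele cannot be told apart. Slc1a3, the gene behind the Cre driver, stood at 281 ± 14.3 CPM (SD, n = 4) in control input and 271 ± 19.8 in DTR input, and at 236 ± 21.9 in control IP and 215 ± 18.4 in DTR IP. Its level was thus not higher in the IP than in the input, and its LFC after damage was -0.04 in input and -0.11 in IP (adjusted p = 0.86 and 0.50, limma).

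The 7 genes spanned a wide range of levels before damage. Per kilobase of annotated exon in control IP, Slitrk6 (41.1 ± 5.57 CPM per kb, SD, n = 4) and Trh (40.1 ± 8.33) were the highest and lay within each other's spread. Ppp2r2b followed at 14.3 ± 2.49. Slc25a41 (5.07 ± 1.38), Rorb (4.16 ± 0.508) and Prdm12 (4.10 ± 0.634) were not separated by their spread, and Gpr50 was the lowest at 1.79 ± 0.233. On the same scale Lgr5 was at 3.56 ± 0.389 in control IP, between Prdm12 and Gpr50. In GRCm38, Trh is at chr6:92242061-92244650 on the minus strand, Prdm12 at chr2:31640037-31655795 on the plus strand, Slitrk6 at chr14:110748580-110755149 on the minus strand and Gpr50 at chrX:71663667-71669257 on the plus strand. Rorb covers chr19:18930605-19111196 and Slc25a41 chr17:57032773-57041654, both on the minus strand. Gm13425 overlaps Prdm12, and 4933407I08Rik and AC099605.1 overlap Ppp2r2b, and A930009A15Rik overlaps Lgr5. The library kit does not keep the strand, and how reads on overlapping genes were counted is not stated. Counts of these 3 genes may thus include reads of their neighbors or lack reads of their own.

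**Figure D1:**
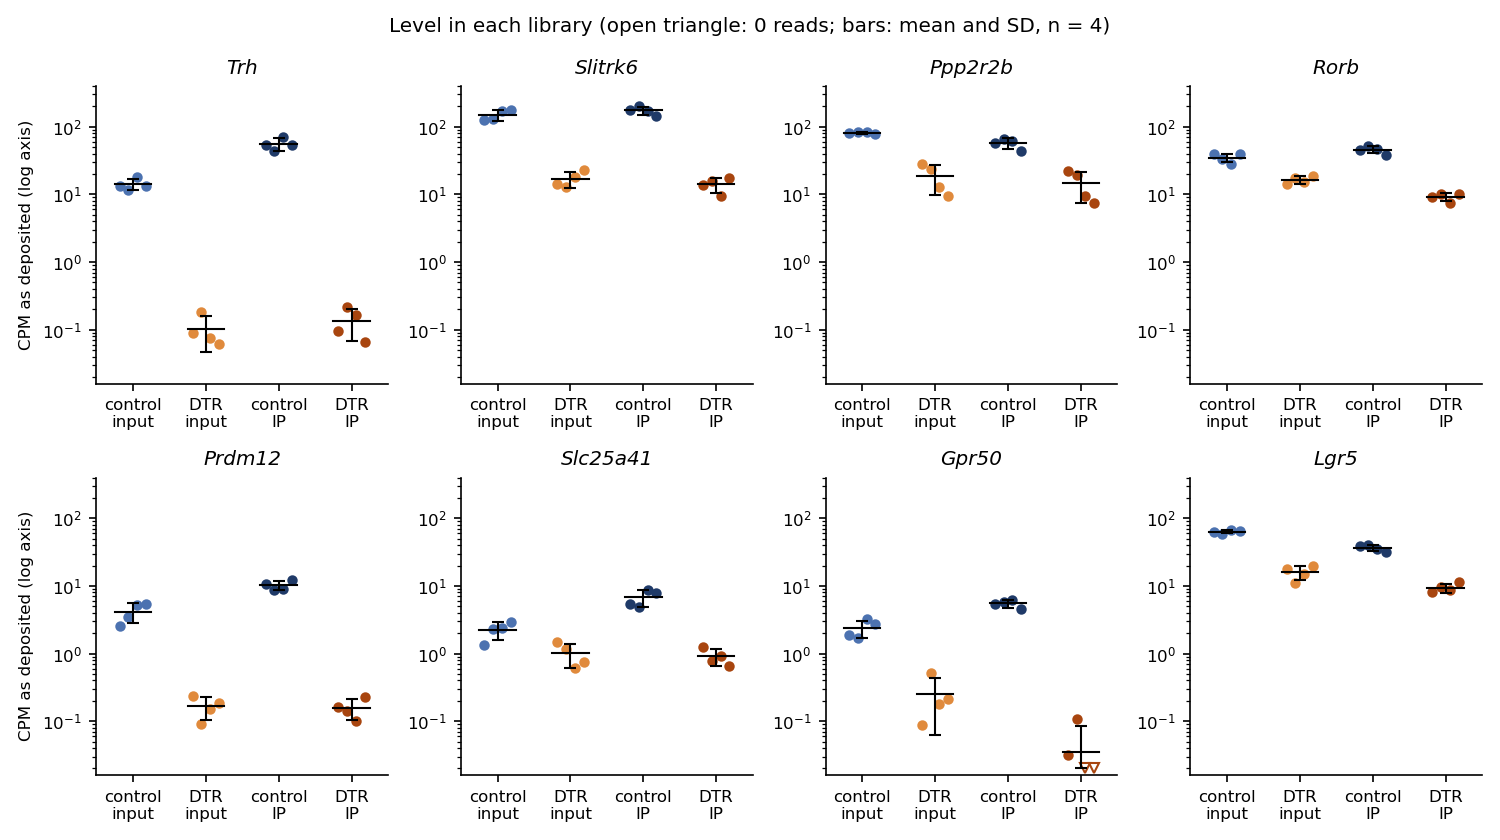
Level of the 7 genes and Lgr5 in each of the 16 libraries, in CPM as deposited on a log axis, with the mean and SD of the 4 libraries of a group (bars that would pass below the axis end at its floor). Trh drops from 43.3 to 71.1 CPM in control IP to at most 0.214 CPM in DTR IP, whereas Slc25a41 is the only one of the 8 genes whose control and DTR input points overlap.

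Trh showed the deepest loss of the 7 in input. There the control pools had 13.3, 11.8, 17.9 and 13.4 CPM and the DTR pools 0.0886, 0.183, 0.0766 and 0.0609 CPM, the latter resting on 2 to 6 reads per library. In IP, the controls had 53.3, 43.3, 71.1 and 54.1 CPM and the DTR pools 0.0964, 0.214, 0.166 and 0.0658 CPM. Every DTR library was thus near the level of 3 reads, which corresponds to 0.0715 to 0.107 CPM across libraries, and every control library was far above it. Of the control reads, 0.712% were left in DTR input (95% counting interval 0.388 to 1.2%, exact binomial) and 0.241% in DTR IP (0.138 to 0.391%). Such intervals cover counting error only. The LFC was -4.64 in input (SE 0.19, adjusted p = 1.1e-11, limma) and -6.50 in IP, the latter given without a test because the IP libraries chose the gene. Both understate the change in reads, since 0.5 CPM was added to values close to 0.

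Prdm12 followed the same course at a lower level. Control input held 2.57, 3.49, 5.17 and 5.38 CPM and DTR input 0.236, 0.0916, 0.153 and 0.183 CPM. Control IP held 10.7, 8.64, 9.14 and 12.1 CPM and DTR IP 0.161, 0.142, 0.0994 and 0.230 CPM. The lowest control library exceeded the highest DTR library in both fractions, and no DTR library had more than 8 reads. The share left was 4.00% in input (2.52 to 6.05%) and 1.57% in IP (0.944 to 2.47%). The LFC was -2.81 in input (SE 0.21, adjusted p = 2.4e-08, limma) and -4.11 in IP. Both depend on the pseudocount, and over pseudocounts of 0.1 and 1, edgeR and DESeq2 they ran from -4.68 to -2.13 in input and from -6.08 to -3.33 in IP.

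Gpr50, the receptor-like member, had the lowest mean CPM of the 7 in control IP (5.50 ± 0.714, SD, n = 4), not separated by its spread from Slc25a41 (6.75 ± 1.84). Its control input values were 1.91, 1.72, 3.19 and 2.69 CPM, against 0.0886, 0.519, 0.179 and 0.213 CPM in DTR input, where pool 2 with 17 reads was the highest. In control IP it was at 5.38, 5.79, 6.26 and 4.58 CPM, and the DTR IP libraries of pools 1 to 4 held 1, 3, 0 and 0 reads. The groups did not overlap, and 10.2% of the control reads were left in input (6.99 to 14.6%) but 0.604% in IP (0.164 to 1.55%). In input the LFC was -2.01 (SE 0.20, adjusted p = 9.9e-07, limma), and in IP it was -3.60. Both depend on the pseudocount, and over the same alternatives they ran from -3.30 to -1.47 in input and from -7.43 to -2.74 in IP.

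Slitrk6 was the most abundant of the 7 in CPM in the controls. Control input measured 124, 129, 170 and 179 CPM and DTR input 14.2, 12.7, 18 and 22.6 CPM. Control IP measured 177, 202, 174 and 144 CPM and DTR IP 13.6, 15.9, 9.38 and 17.3 CPM. Unlike Trh, Prdm12 and Gpr50, Slitrk6 therefore stayed well measured after damage, with 2343 reads in DTR input and 1678 in DTR IP. The share left was 11.2% in input (10.7 to 11.7%) and 8.0% in IP (7.61 to 8.41%), and by pool number it lay between 9.81 and 12.6% in input and between 5.4 and 11.98% in IP. The LFC in input was -3.13 (SE 0.20, adjusted p = 1.6e-09, limma) and in IP -3.66.

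To look at the DNA in front of these genes, the 250 bases before the start were taken from the RefSeq promoter table (GRCm38.p6). Ppp2r2b was left out of the search, and Slc25a41 had no match. The other 5 of the 7 genes gave 6 windows in all, with a pair of starts for Rorb. Both strands were searched for 5 short motifs. The windows of the 3 genes with the smallest share left in IP are shown, at chr6:92244651-92244900 on the minus strand for Trh, chr2:31639787-31640036 on the plus strand for Prdm12 and chrX:71663417-71663666 on the plus strand for Gpr50. Capitals mark the matches to these 5 motifs.
Trh: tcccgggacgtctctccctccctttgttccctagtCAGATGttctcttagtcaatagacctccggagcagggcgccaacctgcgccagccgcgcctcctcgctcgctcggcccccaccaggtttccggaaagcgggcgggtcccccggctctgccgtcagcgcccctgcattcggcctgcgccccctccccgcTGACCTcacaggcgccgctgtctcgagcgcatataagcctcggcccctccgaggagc
Prdm12: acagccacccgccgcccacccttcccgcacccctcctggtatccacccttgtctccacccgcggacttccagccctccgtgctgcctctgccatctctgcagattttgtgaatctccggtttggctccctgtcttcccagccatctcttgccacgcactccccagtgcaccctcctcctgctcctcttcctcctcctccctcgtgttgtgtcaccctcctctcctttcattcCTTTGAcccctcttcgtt
Gpr50: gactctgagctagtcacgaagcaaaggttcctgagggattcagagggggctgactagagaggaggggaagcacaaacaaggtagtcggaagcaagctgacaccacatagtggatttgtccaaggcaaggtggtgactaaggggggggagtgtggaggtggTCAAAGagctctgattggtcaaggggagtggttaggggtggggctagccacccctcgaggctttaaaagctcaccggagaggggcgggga
The capitals in Trh are an E-box and, 51 bases before the start on the reverse strand, a nuclear receptor core. Those in Prdm12 and Gpr50 are the TCF/LEF core, 12 bases before the start in Prdm12 and on the reverse strand 84 bases before it in Gpr50. The TCF/LEF core, CTTTGA, was thus found in 2 of the 6 windows, and in 13.8% of all 32851 windows of this length in the table. The nuclear receptor core, AGGTCA, was in 1 of the 6 (14.0% of all windows). The E-box, CANNTG, which reads the same on both strands, was in 3 of the 6 (66.2%), those of Trh, Slitrk6 and 1 start of Rorb. The TATA box letters, TATAAA, were in none of the 6 and in 12.4% of all windows. The SOX core, ACAATG, was also in none of the 6, and in 10.7% of all. No match overlapped another. These matches describe letters in a short window and were not tested.

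Rorb and Slc25a41 kept the largest shares of the 7 in input. Rorb was at 39.2, 33.7, 28.5 and 38.9 CPM in control input and at 14.2, 17.4, 15.2 and 18.8 CPM in DTR input. In IP it was at 45.7, 52.4, 47.4 and 38.7 CPM in controls and at 9.13, 10.2, 7.49 and 10.2 CPM in DTR. The 4 DTR libraries lay below all controls in each fraction, yet 46.5% of the reads were left in input (44.3 to 48.8%) and 19.98% in IP (18.7 to 21.3%). Its LFC in input was -1.10 (SE 0.14, adjusted p = 1.7e-05, limma) and in IP -2.28.

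For Slc25a41, control input showed 1.36, 2.31, 2.42 and 2.95 CPM and DTR input 1.48, 1.16, 0.613 and 0.761 CPM. Control IP showed 5.47, 4.95, 8.82 and 7.75 CPM and DTR IP 1.25, 0.783, 0.928 and 0.658 CPM. The IP groups were far apart, but in input the DTR library of pool 1 lay above the control library of pool 1. As a percent of the control library with the same number, the DTR pools 1 to 4 kept 109, 50.2, 25.3 and 25.8% in input and 22.9, 15.8, 10.5 and 8.49% in IP, more in pools 1 and 2 than in pools 3 and 4. In input 44.1% of the reads were left (35.9 to 53.9%) and in IP 13.5% (11.0 to 16.5%). The input LFC of -0.98 (SE 0.24, adjusted p = 0.0093, limma) fell short of a called change in size and in separation, and the IP LFC was -2.52 (-2.98 to -2.14 over those pseudocounts and tools). Without control input pool 1 the input difference was called.

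Ppp2r2b, the PP2A subunit, varied between pools after damage. Control input was steady at 80.1, 84.2, 83.0 and 79.2 CPM, whereas DTR input spread over 28.1, 23.7, 12.7 and 9.44 CPM. Control IP was at 58.5, 65.9, 61.2 and 43.1 CPM and DTR IP at 21.8, 19.6, 9.31 and 7.56 CPM. The groups did not overlap, but in both DTR fractions pools 1 and 2 kept more than pools 3 and 4, so that the DTR share of the control library with the same number ran from 11.9 to 35.0% in input and from 15.2 to 37.3% in IP. In summed reads 22.4% were left in input (21.5 to 23.4%) and 25.2% in IP (23.9 to 26.6%), the only one of the 7 genes with a larger share left in IP. These intervals cover counting error only, and the LFC of the fractions differed by 0.13 (SE 0.43), within its error. The LFC was -2.23 in input (SE 0.30, adjusted p = 4.0e-05, limma) and -2.09 in IP. Since Ppp2r2b is known as a neuronal gene, the summed level of 8 neuron markers (Nefl the most abundant) was set beside it. This sum was 805, 726, 243 and 195 CPM in control input, 679, 418, 215 and 88.8 CPM in DTR input, 427, 423, 168 and 133 CPM in control IP and 416.6, 249, 164 and 61.6 CPM in DTR IP. It was higher in pools 1 and 2 than in pools 3 and 4 in all 4 groups, as Ppp2r2b was in DTR and as the share of Slc25a41 left by pool was, but Ppp2r2b in control input did not vary with it. None of the 8 markers was at 0 in a whole group. After damage none of the 8 was called by limma, edgeR or DESeq2, and at an unadjusted p under 0.05 limma gave 0 in input and 1 in IP. The part of neuronal RNA in the values of Ppp2r2b and Slc25a41 in the DTR pools was not tested.

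**Figure D2:**
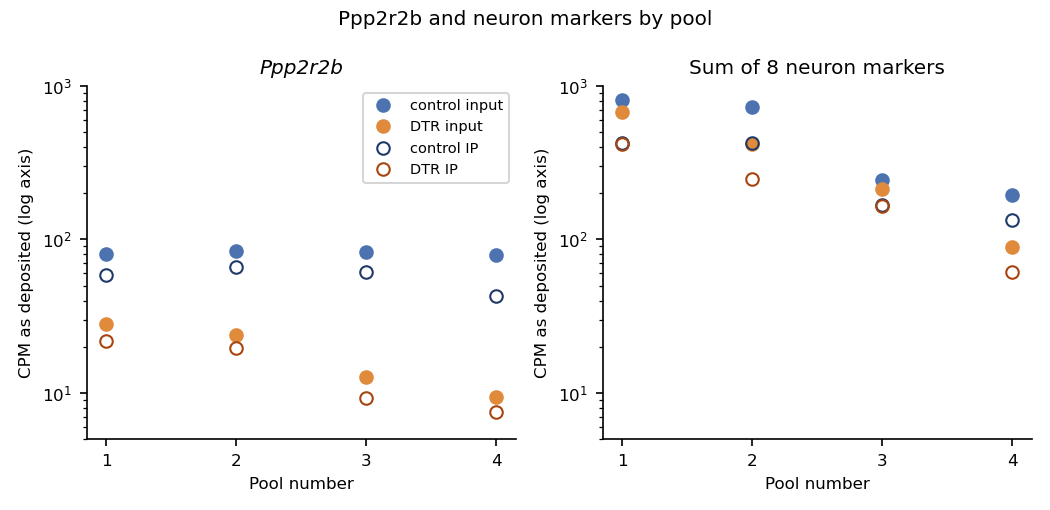
Ppp2r2b (left) and the sum of 8 neuron markers (right) by pool number, in CPM as deposited on a log axis, filled for input and open for IP. Ppp2r2b is flat across the control input pools (79.2 to 84.2 CPM) and lower in DTR pools 3 and 4 than in DTR pools 1 and 2, whereas the neuron sum is lower in pools 3 and 4 of every group.

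The comparison of DTR input with control input answers whether the genes chosen in the IP also fell in whole cochlear tissue. Its libraries were not used in the choice, although each comes from the same homogenate as an IP library that was. A gene was called when its LFC was 1 or more in size, its adjusted p was under 0.05 and its separation exceeded 1.5. Separation divides the lowest library of the higher group by the highest library of the lower one, after libraries below 1.08 CPM are set to 1.08. By limma 6 of the 7 genes were called lower, against 170 of all 16994 tested genes (1.00%), and Slc25a41 was the exception. With a minimum of 2 CPM in place of 0.5, 4 of the 7 were called. Prdm12 and Gpr50 passed that filter with the same LFC of -2.81 and -2.01 and missed only the separation, whose floor rises with the minimum. Prdm12 had an adjusted p of 3.6e-08 there (limma). Gpr50 was under 2 CPM in control input pools 1 and 2 (1.91 and 1.72 CPM). It passed only through control IP, whose libraries chose it, so its result at that filter adds no support. At an adjusted p under 0.05 alone all 7 were lower, against 5.21% of tested genes. The median LFC of the 7 was -2.23, that of all tested genes -0.02. Among the 170 genes called lower in input, Trh had the largest fall in LFC, Slitrk6 ranked 8, Prdm12 15, Ppp2r2b 30, Gpr50 44 and Rorb 154. These ranks depend on the pseudocount, which shrinks the fall of genes at low levels. By reads the order differed, with a smaller share left for Prdm12 (4.00%) than for Slitrk6 (11.2%) and for Gpr50 (10.2%) than for Ppp2r2b (22.4%). Gpr50 was also below Slitrk6 by reads, but the counting interval of Gpr50 includes the share of Slitrk6. In the IP, where the choice itself fixed that they fell, their ranks by size of fall among the 228 genes called lower (1.34% of tested genes) are a description only, at 1 (Trh), 2 (Prdm12), 7 (Slitrk6), 9 (Gpr50), 37 (Slc25a41), 47 (Rorb) and 59 (Ppp2r2b), with Lgr5 at 65. The same limit holds there, as Gpr50 kept a smaller share of its reads in IP than Slitrk6 (0.604% and 8.0%). The smallest fall among the 7 was -2.09, and the called genes next to it that were not chosen had -2.10 and -2.09.

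**Figure D3:**
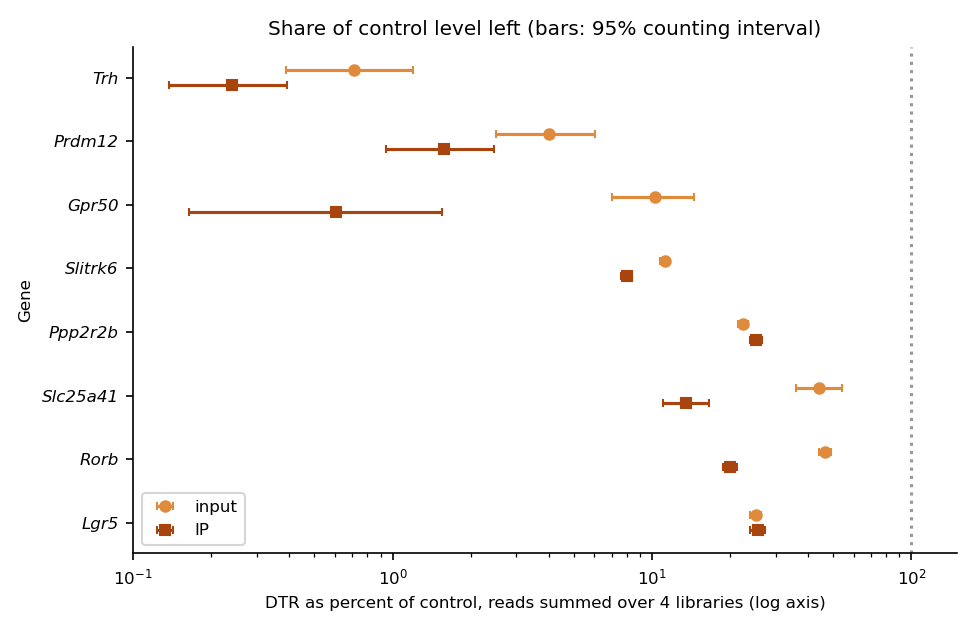
DTR reads as a percent of control reads, summed over 4 libraries and scaled to library totals, for input (circles) and IP (squares) on a log axis, with 95% counting intervals. Trh is the lowest in input (0.712%), the intervals of Trh (0.241%) and Gpr50 (0.604%) overlap in IP, Rorb and Slc25a41 keep over 40% in input, and Lgr5 and Ppp2r2b sit at nearly the same share in both.

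The ratio of IP to input within each pool was described without a test, since these are the IP libraries that chose the genes. In control pools 1 to 4, Trh had ratios of 4.02, 3.68, 3.96 and 4.04 (mean 3.93 ± 0.165, SD, n = 4). Slc25a41 (3.11 ± 0.876), Prdm12 (2.66 ± 1.04) and Gpr50 (2.46 ± 0.772) were also above 1 in all 4 control pools. Rorb (1.34 ± 0.316) and Slitrk6 (1.2 ± 0.351) straddled 1, each above it in 3 of 4 pools. Ppp2r2b at 0.699 ± 0.106 and Lgr5 at 0.580 ± 0.0848 were below 1 in all 4. The 7 genes thus fell into those with a ratio above 1 in all 4 control pools and those without, with Ppp2r2b on the same side as Lgr5. Annotated exon length was 1331 to 3069 bases in the former. In Rorb, Slitrk6, Ppp2r2b and Lgr5 it was 3985 to 11076 bases. Per its methods, the study corrected the IP samples for a gene length effect before clustering, and these ratios carry no such correction. The part of exon length in them was not tested. In DTR pools the ratio of Rorb was 0.567 ± 0.0643, below 1 in all 4 pools, and that of Slc25a41 was 0.975 ± 0.369, both below every control pool of the same gene. Choosing the genes for a fall in IP favors a higher control ratio as well as a lower DTR ratio. The control ratios and these differences are thus a description only. The ratio of Slitrk6 was 0.874 ± 0.309 and overlapped its control pools. For Trh, Prdm12 and Gpr50 the DTR ratios rest on a few reads and carry no reading. For Ppp2r2b it was 0.784 ± 0.0411 and for Lgr5 0.612 ± 0.167, both overlapping the control pools.

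**Figure D4:**
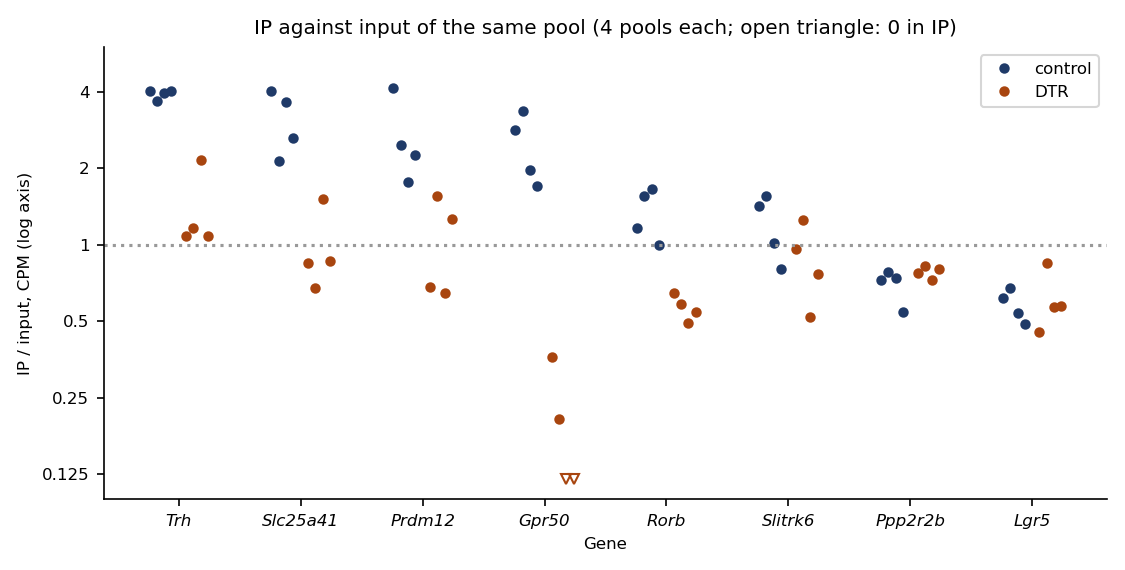
IP over input in CPM within each of the 4 control and 4 DTR pools, on a log axis, with the dotted line at 1 and open triangles for 0 reads in the IP. Control ratios run from 3.68 to 4.04 for Trh down to values below 1 for Ppp2r2b and Lgr5. The DTR ratios of Rorb and Slc25a41 lie below all control ratios of the same gene, which the choice of the genes for a fall in IP favors.

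To place the 7 genes among the rest, the 3 tested genes with the smallest root mean square (RMS) difference in log2 level over the 16 libraries, each gene centred on its own mean, were taken for each. Trh had no close neighbor. Its nearest was Lfng, a glycosyltransferase that modifies Notch receptors, at an RMS difference of 1.05, followed by Prdm12 (1.11) and Plet1 (1.16). Lfng went from 279 CPM in control IP to 16.8 in DTR IP. Prdm12 lay nearest to Egfl6 (0.45), Gpr50 (0.45) and the cation channel Trpa1 (0.46), and Slitrk6 to the diacylglycerol kinase Dgkb (0.37), Trpa1 (0.37) and Egfl6 (0.40). Gpr50 lay nearest to Fam124b (0.28), Egfl6 (0.34) and Fgf20 (0.39), a fibroblast growth factor of the developing organ of Corti. Egfl6 was thus a neighbor of 3 of the 7 genes and fell from 38.5 to 3.77 CPM in IP and from 25.8 to 4.40 CPM in input. Rorb was closest to Fam83a (0.25), Glb1l2 (0.28) and Syt6 (0.29), and Slc25a41 to Gm266 (0.30), Galnt14 (0.32) and Fgf15 (0.33). Ppp2r2b was closest to Rtn1 (0.39), Dpp4 (0.39) and Emx2 (0.43), a homeobox gene that sets hair cell orientation. These distances describe likeness of pattern over libraries that share the IP used for the choice, and at low levels the pseudocount brings genes together.

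The families and partners of the 7 genes were then examined through 7 lists with 62 genes, 54 of which were tested. By limma, 2 of the 54 were called lower and 3 higher in input, and 1 lower and 1 higher in IP, with a median LFC of -0.02 in input and 0.02 in IP. The background is 1.00% lower and 1.34% higher of all tested genes in input, and 1.34% lower and 1.12% higher in IP.

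Trhr, the receptor for thyrotropin-releasing hormone, fell as its ligand gene did. It was at 4.5, 5.21, 4.40 and 4.97 CPM in control input and at 0.118, 0.183, 0.128 and 0.487 CPM in DTR input. In control IP it was at 2.03, 1.95, 2.35 and 1.5 CPM, and the DTR IP libraries held 0, 3, 0 and 2 reads. The groups did not overlap, and unlike Trh the receptor was lower in control IP than in control input. The LFC was -2.92 in input (SE 0.18, adjusted p = 1.2e-09, limma) and -2.31 in IP (SE 0.18, adjusted p = 2.7e-08), with 4.71% and 2.12% of the reads left. These shares rest on 31 and 5 DTR reads (counting intervals 3.18 to 6.74% and 0.682 to 5.00%). Pool 4 weighs most in the input share and pool 2 in the IP share. The call in IP was lost with CPM as deposited, and the calls in both fractions at a minimum of 2 CPM, as the separation was no longer met. The other 7 tested genes of the list, which cover processing of the precursor and breakdown of the hormone, included none that was called, and the carboxypeptidase Cpe, the most abundant, was at 476 ± 34.8 CPM in control input and 489 ± 47.4 in DTR input.

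Among the 12 genes of the Slitrk list, which holds the other Slitrk proteins, their LAR-type phosphatase partners and the cochlear neurotrophins, Slitrk4 was called lower in input. It was at 11.5, 13.5, 10.1 and 12 CPM in control input and 4.11, 4.49, 3.06 and 3.96 CPM in DTR input (LFC -1.57, SE 0.29, adjusted p = 0.00086, limma), and its IP LFC of -1.25 was short of the separation required. Slitrk1, Slitrk2, Slitrk3 and Slitrk5 were not called in either fraction, with input LFC of -0.52, -0.20, -0.89 and -0.67. Of the neurotrophins, which support spiral ganglion neurons, Ntf3 went from 51.0 ± 12.8 to 19.1 ± 6.96 CPM in IP (LFC -1.46, SE 0.28, adjusted p = 0.0012, limma) without passing the separation, and Bdnf was at 11.0 ± 1.71 and 10.6 ± 0.633 CPM.

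Of the nuclear receptors related to Rorb, the REV-ERB genes rose. Nr1d1, a repressor within the circadian clock, was at 22.3, 27.0, 21.4 and 24.9 CPM in control input and at 359, 326, 171 and 237 CPM in DTR input. In IP it was at 23.4, 21.6, 19.0 and 25.5 CPM in controls and at 201, 169, 97.0 and 124 CPM in DTR. All DTR libraries exceeded all controls, with an LFC of 3.39 in input (SE 0.22, adjusted p = 2.2e-09, limma) and 2.68 in IP (SE 0.22, adjusted p = 5.0e-08). Its paralog Nr1d2 rose in input (LFC 1.40, SE 0.21, adjusted p = 0.00011, limma). Rora was not called and was at 488 ± 24.4 CPM in control IP and 355 ± 72.9 in DTR IP (LFC -0.45, adjusted p = 0.040, limma).

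Among the 3 other ATP-Mg/phosphate carriers, Slc25a25 rose in input from 60.4 ± 1.72 to 225 ± 53.5 CPM (LFC 1.82, SE 0.16, adjusted p = 2.0e-07, limma), opposite to Slc25a41, and Slc25a23 and Slc25a24 were not called. None of the 16 tested PP2A subunits was called in either fraction by limma, edgeR or DESeq2, with 5 of them at an unadjusted p under 0.05 in input and 4 in IP. Ppp2r2a, a further B subunit, had an LFC of 0.89 in input (SE 0.13, adjusted p = 9.8e-05, limma) and Ppp2r2d one of 0.50 (adjusted p = 0.015), the opposite sign to Ppp2r2b, whereas Ppp2r2c had one of -0.33 (SE 0.38, adjusted p = 0.69). The catalytic subunit Ppp2ca was at 416 ± 18.5 and 489.7 ± 66.4 CPM. Of the 12 tested genes of the PRDM list none was called by any of these tools (1 at an unadjusted p under 0.05 in input and 2 in IP), with input LFC from -0.29 to 0.72, and Prdm16, the most abundant of them in control IP, was at 46.4 ± 7.75 and 48.5 ± 11.6 CPM there and in DTR IP. The melatonin receptors Mtnr1a and Mtnr1b did not reach the filter, with at most 0.193 and 0.0897 CPM in any library.

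**Figure D5:**
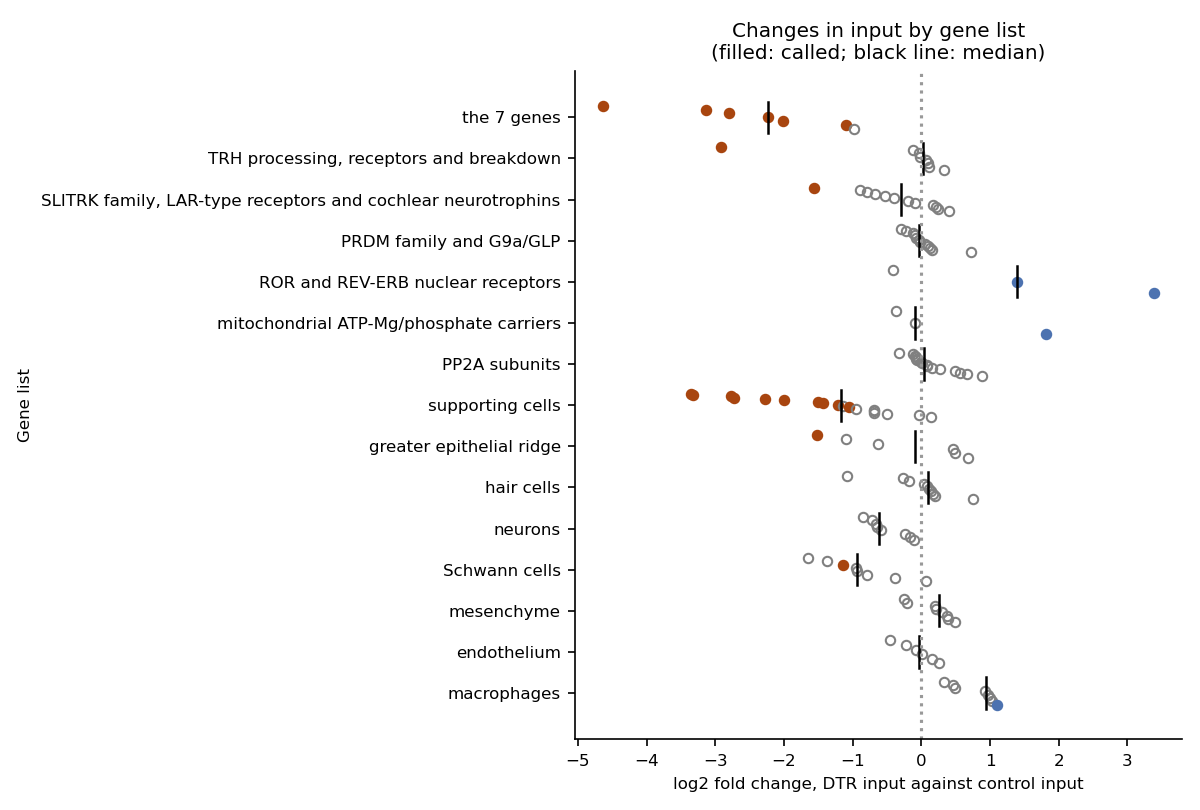
LFC of DTR input against control input for each tested gene of 15 lists, filled where called lower (brown) or higher (blue), with a black line at the list median. The 7 genes lie between -4.64 and -0.98, the supporting cell markers between -3.35 and 0.14, and most genes of the 6 family lists with tested genes lie near 0.

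Markers of the cells in the sample were compared in the same way. Of 18 supporting cell markers, 10 were called lower in input and 9 in IP and none higher by limma, with a median LFC of -1.18 and -1.29. Over all tested genes, 1.00% were called lower in input and 1.34% in IP. Some of these markers were named by the study on these libraries, and Lgr5 is 1 of the 18. Lfng had an LFC of -3.35 in input (SE 0.17, adjusted p = 9.1e-11, limma) with 9.60% of its reads left. Fgfr3, a growth factor receptor of pillar and Deiters' cells, had -3.32 (9.82% left), Hes5, a Notch effector, -2.76 (8.69% left), and Sox2, a transcription factor of all supporting cells, -1.05 (48.4% left). Trh and Prdm12 thus kept a smaller share of their reads in input than each of these 4 markers. Sparcl1, the most abundant of the 18, was not called (LFC 0.14 in input, adjusted p = 0.63, limma). The summed level of the 18 was 4605, 4977, 4591 and 4763 CPM in control input and 3601, 3971, 3796 and 3357 CPM in DTR input. In IP it was 3982, 4173, 3944 and 4538 CPM in controls and 2732, 2946, 2489 and 2887 CPM in DTR. The sum was lower in every DTR library than in every control library of the same fraction, and none of the 18 was at 0 in a whole group. Of 6 GER genes, Otog was called lower in both fractions (LFC -1.52 and -1.56), and the others were not called. All 6 had an unadjusted p under 0.05 in input and 3 in IP by limma, with input LFC in both directions around a median of -0.09. Tecta (-1.10, adjusted p = 0.0002) and Otogl (-0.64, 0.0092) were negative, and Epyc (0.49, 0.043), Otoa (0.46, 0.046) and Crabp1 (0.68, 0.11) positive.

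Markers of other cell types were compared between DTR and control as well, and few of them were called. Of 8 Schwann cell markers, 6 had an adjusted p under 0.05 and a lower level in input, against 5.21% of tested genes. Prx was called lower (LFC -1.15, SE 0.20, adjusted p = 0.00057, limma), as were 1.00% of tested genes. Their sum was 4935, 4631, 2909 and 3346 CPM in control input and 1779, 1496, 2242 and 1818 CPM in DTR input, Mbp being the most abundant. In IP it was 1354, 1315, 863 and 908 CPM in controls and 810, 655, 866 and 747 CPM in DTR. The fall was thus seen in every input library but overlapped between groups in IP. The 8 macrophage markers, led by Csf1r, summed to 104, 101, 97.8 and 104 CPM in control input and to 190, 133, 169 and 217 CPM in DTR input. In IP they summed to 24.9, 23.4, 18.4 and 15.6 CPM in controls and to 55.9, 36.1, 42.7 and 49.8 CPM in DTR. They were higher in every DTR library, with Cd68 called higher in input and C1qb in IP, where 1.34% and 1.12% of tested genes were called higher. Of 10 hair cell markers, led by Myo6, none was called in input by limma, edgeR or DESeq2 (2 at an unadjusted p under 0.05), and Slc17a8 was called higher in IP. Their sum overlapped between groups in input, but in IP it was 180 to 261 CPM in controls and higher in every DTR library (266 to 301 CPM). Of 8 mesenchyme markers none was called by these tools in either fraction, with 3 at an unadjusted p under 0.05 in input and 5 in IP. Their sum overlapped between groups in input, but in IP it was 5026 to 6233 CPM in controls and higher in every DTR library (6467 to 7981 CPM). Of 6 endothelium markers none was called, with 0 in input and 1 in IP at an unadjusted p under 0.05. No marker of these lists was at 0 in a whole group, and the part of RNA from these cell types in the levels of the 7 genes was not tested. In control IP against control input, 6 of 8 Schwann cell, 7 of 8 macrophage, 6 of 10 hair cell and 5 of 6 endothelial markers were called lower by limma, against 3.56% of tested genes. So were 2 of 8 mesenchyme markers and 1 of 6 GER genes (Otoa). None of the 8 neuron markers was called there by limma, edgeR or DESeq2 (3 at an unadjusted p under 0.05 by limma), and no GER gene was called higher by any of these tools, although the GER is among the cells tagged for the IP. Of the 18 supporting cell markers 2 were called higher there, against 4.12% of tested genes, and 2 lower.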

How the data were processed

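The authors aligned reads from SMART-Seq v4 libraries to GRCm38 with HISAT2, per the study's methods, and counted them with HTSeq. The submitters' processing notes name TopHat instead. The annotation release and the strand setting are not given in the sources used here. The authors deposited CPM per gene for each library. Of 50316 genes listed, 47729 had values. Values above 0 were whole multiples of 1 read in 100% of cases (tolerance 0.02 reads), so reads were recovered for counting intervals, edgeR and DESeq2.

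CPM were quantile normalized over 16 libraries, log2 transformed with a pseudocount of 0.5 and filtered to genes that reached 0.5 CPM in each of the 4 libraries of some group, which left 16994. Group means were estimated in 1 limma model (version 3.58.1, R 4.3.3) with Benjamini-Hochberg adjustment. The procedure was also run on simulated data in which all libraries were drawn independently. That run cannot show how the p-values hold where the input and IP of a pool deviate together. Whether pools with the same number in control and DTR share a day is not stated. Their deviations from the group means were correlated in every same-numbered pair (r 0.291 to 0.442 in input, 0.306 to 0.559 in IP), so the number was taken to pair them. The main model has no term for the pair, which enters as a block among the alternatives. The labels' number was used. For the fourth pool the deposited data carry another number than the labels, the same one in its input and IP libraries of both genotypes. The pools are separate groups of mice, but the model took all 16 libraries as independent, and its spread is shared by both fractions. Input and IP libraries of the same pool deviated together (mean r 0.373 in control and 0.407 in DTR). The p-values thus do not measure the spread between pools alone. With the compared groups alone, limma gave larger input adjusted p. They were 1.5e-07 for Trh, 1.4e-05 for Prdm12, 1.7e-06 for Slitrk6, 0.00015 for Gpr50 and 0.00032 for Rorb.

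The 7 genes and the lists were chosen with earlier results of these data known. Named genes were the 7, Lgr5, Slc1a3, called list genes or else the most abundant of a list, and the 3 nearest patterns. Slitrk1, Slitrk2, Slitrk3, Slitrk5, Ntf3, Bdnf, Slc25a23, Slc25a24, Ppp2r2a, Ppp2r2c, Ppp2r2d, Tecta, Otogl, Epyc, Otoa and Crabp1 were named after their values were seen. A listed gene is not reported here and is left out of the list counts. Gene positions and exon lengths came from GENCODE M21. Alternatives were edgeR (version 4.0.16), DESeq2 (version 1.42.0), other scalings, pseudocounts and filters, the pair as a block, the compared groups alone, calls without the separation, and each library left out.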

Additional observations from a re-analysis of the deposited data

Results flagged for a closer look

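Of 116 sets of 4 libraries checked for a library far from the others, 2 were flagged, where chance flags about 1 in 20. Slc1a3 in control input was at 303 CPM in pool 4, with the other 3 pools at 274 to 275 CPM. Hes5 in DTR IP was at 1.87 CPM in pool 4, with the other 3 pools at 0.570 to 0.762 CPM. Neither is among the 7 genes, for which no library stood apart by this measure.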

How the results depend on the processing

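The 7 input LFC kept their sign and an adjusted p under 0.05 under every alternative run, and 6 of the 7 genes were called lower in input in each of them except at a minimum of 2 CPM, where 4 were called (Prdm12, Gpr50 and Slc25a41 were not), and without control input pool 1, where all 7 were. Leaving out each library in turn gave 6 to 7. At the minimum of 2 CPM, Gpr50 and Slc25a41 passed the filter only through control IP, whose libraries chose them. The genes called in input were 397, 253 at a minimum of 2 CPM and 692 without the separation, with edgeR calling 410 and DESeq2 412. In IP they were 419, 272 and 756 in the same order, with 436 and 437 by the count tools. Leaving out a library gave 409 to 480 in input and 444 to 483 in IP. With the pair as a replicate block 397 and 420 were called and no call among the 7 changed. Family list genes called in IP were 2, and 1 with CPM as deposited or at a minimum of 2 CPM, 4 without the separation, and 2 to 3 with a library left out.

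Values near 0 followed the pseudocount in both fractions. With 0.1, 1, edgeR and DESeq2 in this order, the input LFC was -6.28, -3.79, -7.08 and -7.16 for Trh, -4.07, -2.13, -4.63 and -4.68 for Prdm12, and -3.04, -1.47, -3.25 and -3.30 for Gpr50 (-4.64, -2.81 and -2.01 by limma with 0.5). The IP LFC was -8.05, -5.64, -8.73 and -8.77 for Trh, -5.51, -3.33, -6.05 and -6.08 for Prdm12, -5.60, -2.74, -7.28 and -7.43 for Gpr50, and -2.98, -2.14, -2.97 and -2.98 for Slc25a41. In DTR, the LFC of IP against input was 0.38 with edgeR and 0.40 with DESeq2 for Trh (0.07 by limma with a pseudocount of 0.5), and -1.28 with a pseudocount of 0.1, -2.76 with edgeR and -2.89 with DESeq2 for Gpr50 (-0.44 by limma with 0.5). Depth limits Trh, Prdm12 and Gpr50 after damage, where 3 reads are 0.0715 to 0.107 CPM.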
